A study of Mus musculus with 12 samples.

Results

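The nuclear genes for the subunits of respiratory complexes II to V and for cytochrome c were followed in mouse gastrocnemius, the large calf muscle. They were taken by name from the protein-coding genes of the deposited table (Sdha to Sdhd, and names beginning with Uqcr, Cox4 to Cox8 or Atp5, with Cyc1 and Cycs), which gave 50 of 54532 genes. Complex II has 4 of them, complex III 9, cytochrome c 1, complex IV 18 and complex V 18. All mice were female ICR SCID animals, a strain that carries an immunodeficiency. TL mice bore subcutaneous tumours of HT1080, a human fibrosarcoma line, and were gavaged with selpercatinib, an inhibitor of the kinase RET, at 30 mg/kg once a day for 19 days. TV mice bore the same tumour and received vehicle, and NTV mice had no tumour and received vehicle. Ages and the length of vehicle dosing are not given in the sources used here, and the host lacks the lymphocytes that would reject a human graft. Each group had 4 libraries from separate animals (TL replicates 1, 4, 5 and 7, TV replicates 3, 4, 6 and 8, and NTV replicates 2, 3, 5 and 6). The study concerns cancer cachexia, the wasting of muscle and fat in tumour-bearing hosts, and the drug.

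Respiratory complexes pass electrons from fuel oxidation to oxygen and use the proton gradient this builds to make ATP. Complex II takes electrons from succinate, complex III hands electrons from ubiquinol to the mobile carrier cytochrome c, complex IV passes them to oxygen, and complex V is the ATP synthase. Complex II is built from nuclear gene products alone, whereas complexes III, IV and V also hold subunits made inside the mitochondrion. Skeletal muscle, and oxidative fibres above all, is rich in these complexes, and several complex IV subunits have a form particular to striated muscle.

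Levels are FPKM as deposited, fragments per gene scaled to gene length and library size. A total of 46 members had a mean of at least 0.5 FPKM over the 12 libraries and were tested among 12754 such genes. The other members were Cox6b2, a testis form that averaged 0.359 FPKM, and Cox7b2, Cox8c and a second gene ID named Atp5o, which had 0 reads in every library. Tested members spanned a mean of 2.48 FPKM for Cox4i2 to 1083 FPKM for Cox6a2, with a median of 155 FPKM. Libraries held 14939830 to 23580603 reads assigned to genes, and Cox4i2, the member with fewest reads, had 90 over the 4 TL libraries, 111 over the TV libraries and 221 over the NTV libraries. All 10 muscle identity markers were detected in each group, with sums over the list of 43254 to 49579 FPKM in TL, 43188 to 81036 FPKM in TV and 47812 to 59101 FPKM in NTV libraries. Members took 1.75% ± 0.25 of the reads in TL, 1.48% ± 0.114 in TV and 2.12% ± 0.14 in NTV libraries (SD, n = 4). Reads of the mitochondrial genome took 9.17% ± 3.67 in TL, 6.53% ± 1.08 in TV and 12.4% ± 0.801 in NTV libraries.

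TL replicates 1 and 5 and NTV replicate 5 stood apart in brown adipocyte markers, and these libraries also stood apart in some members. Ucp1, the uncoupling protein of brown fat, was at 58.3 and 3.97 FPKM in TL replicates 1 and 5 and at 53.4 FPKM in NTV replicate 5, and at most 1.06 FPKM in the other libraries. The brown adipocyte list of 9 genes summed to 11.1 to 136 FPKM in TL, 11.7 to 13.7 FPKM in TV and 14.0 to 97.1 FPKM in NTV libraries, and no gene of it was at 0 in a whole group, though Ucp1 itself had 0 reads in TL replicate 7 and TV replicate 6. TL replicate 5 was the highest TL library for 41 of 46 members and TL replicate 4 the lowest for 41. NTV replicate 5 was the lowest NTV library for 42 members, TV replicate 3 the lowest TV library for 38 and TV replicate 8 the highest for 31. Results are given below with and without the libraries where they matter.

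The comparison of TV with NTV asked how the tumour-bearing state related to these transcripts in mice without the drug. Members were lower on balance in TV muscle. Of 46 tested members, 19 were called lower, 1 was called higher and 26 were not called (limma with Benjamini-Hochberg adjustment over all tested genes, adjusted p under 0.05). Over all 12754 genes, 11.5% were called lower and 13.8% higher. The median log2 change of the members was -0.46, against 0.02 over all tested genes, and 42 of 46 members had a negative value. In 19 members the 4 TV values lay below the 4 NTV values without overlap, which held for 12.7% of all tested genes. In bulk RNA, fewer cells of a type and less RNA per cell cannot be told apart. Markers of slow and oxidative fibres summed to 1078 to 3294 FPKM over 12 genes in TV and 3829 to 5339 FPKM in NTV libraries. However, only 5 of the 12 had a negative log2 change, 2 were called lower, and the median log2 change of the list was 0.17. Mb, also a muscle identity marker, averaged 668 FPKM in TV and 2047 FPKM in NTV libraries, and Fabp3 175 FPKM in TV and 784 FPKM in NTV libraries. Myl2, Tnnc1 and Myl3 had higher means in TV than in NTV libraries. Tendon cell markers summed to 17.6 to 42.9 FPKM over 9 genes in TV and 67.4 to 130.3 FPKM in NTV, and 7 of 8 tested were called lower. Endothelial markers summed to 72.3 to 89.2 FPKM over 8 genes in TV and 91.2 to 111.9 FPKM in NTV, also without overlap, and 2 were called lower. Fast fibre markers had 3 of 12 called higher, with overlapping sums of 39771 to 67168 FPKM in TV and 36687 to 48931 FPKM in NTV. White adipocyte sums overlapped as well, at 848 to 1600.2 FPKM over 10 genes in TV and 538 to 1053 FPKM in NTV, with none called. Of 7 brown adipocyte genes tested 1 was called lower. It was Ppargc1b, which is also counted among the transcription regulators below. Of the 10 muscle identity genes 2 were called higher and 1 lower. None of the macrophage, smooth muscle or erythroid genes tested was called. No gene of these lists was at 0 in a group. The part of these markers in the result was not tested. With the 3 libraries above 2 FPKM of Ucp1 left out, 22 members were called, all of them lower. The share of all genes called in that fit is not given here, so this count has no background beside it.

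**Figure D1:**
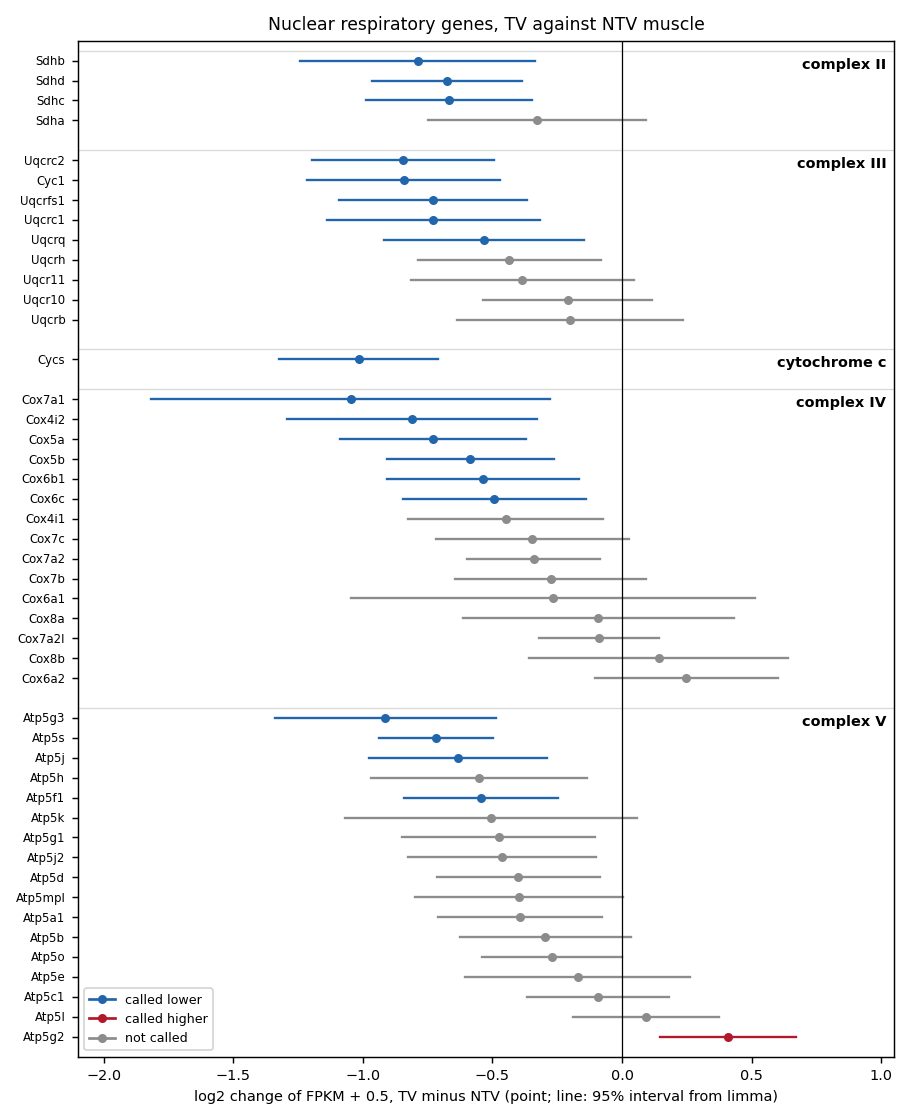
Log2 change of FPKM + 0.5 in TV against NTV muscle for the 46 tested members, grouped by complex (point, limma estimate; line, 95% interval; 4 libraries per group). Estimates run from -1.05 for Cox7a1 to 0.41 for Atp5g2, 19 are called lower (blue) and 1 higher (red).

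Complex II was lower in 3 of its 4 subunits. Sdhb (ENSMUSG00000009863, chr4:140961203-140979193, plus strand, mm10) carries the iron-sulphur clusters of the enzyme. It had 192, 124, 237 and 143 FPKM in TL libraries and 115, 179.7, 140.4 and 155 FPKM in TV libraries, against 240.3, 297, 206 and 274 FPKM in NTV libraries. No TV library reached the NTV range (log2 change -0.79 ± 0.21 SE, adjusted p = 0.0181), though the call ended without TV replicate 3 (adjusted p = 0.0525). Sdhd, 1 of the 2 membrane anchors (ENSMUSG00000000171, chr9:50596357-50603812, minus strand, mm10), had 236, 187, 256 and 222 FPKM in TL libraries and 144, 197, 178 and 186 FPKM in TV libraries, against 272, 299.997, 248 and 303 FPKM in NTV libraries. Its TV and NTV values did not overlap either (-0.68 ± 0.13, adjusted p = 0.00474). Sdhc, the other anchor, fell by 0.67 ± 0.15 on the log2 scale (adjusted p = 0.00781). Sdha, the flavoprotein that oxidises succinate, was not called: it averaged 182 ± 40.5 FPKM in TV and 224 ± 16.02 FPKM in NTV libraries (SD, n = 4 each), with a 95% interval of the log2 change of -0.75 to 0.09.

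In complex III the 4 core subunits fell together, and 1 of 5 small ones was called. Uqcrc2, a core protein of the matrix arm (ENSMUSG00000030884, chr7:120635176-120659524, plus strand, mm10), had 198, 132, 218 and 158 FPKM in TL libraries and 117, 146, 150.2 and 141 FPKM in TV libraries, against 234, 285, 216 and 263 FPKM in NTV libraries. Cyc1 (ENSMUSG00000022551, chr15:76343523-76346260, plus strand, mm10) encodes cytochrome c1, the haem subunit that passes electrons to cytochrome c, and had 204, 140.2, 233 and 170.3 FPKM in TL libraries and 111, 156, 157 and 163 FPKM in TV libraries, against 263, 289, 227 and 268 FPKM in NTV libraries. Both were below every NTV library in every TV library, with log2 changes of -0.84 ± 0.16 for Uqcrc2 (adjusted p = 0.00433) and -0.84 ± 0.17 for Cyc1 (adjusted p = 0.00553). Uqcrfs1, the Rieske iron-sulphur protein and the most abundant member of the complex, had 362, 267, 447 and 303 FPKM in TL libraries and 237, 308, 305 and 285 FPKM in TV libraries, against 451, 534, 399 and 504 FPKM in NTV libraries. Its TV and NTV groups were separated as well (-0.73 ± 0.17, adjusted p = 0.00935), as were those of Uqcrc1, the other matrix-arm core protein (-0.73 ± 0.19, adjusted p = 0.0165). The median log2 change was -0.79 over the 4 core subunits and -0.39 over the small subunits Uqcrq, Uqcrh, Uqcrb, Uqcr10 and Uqcr11, a difference that was not tested. Of the small subunits only Uqcrq, which lies near the ubiquinone site, was called (-0.53 ± 0.18, adjusted p = 0.0452). Its TV and NTV values overlapped, and leaving out any 1 of TL replicates 1 and 7, TV replicates 3, 4 and 6 and NTV replicates 2, 3 and 6, or dropping the filter on low values, ended the call (adjusted p up to 0.117). Of the stretches of 50 bases in Uqcrc2 transcripts, 17.6% also occur in the neighbouring gene Pdzd9, which averaged 0.182 FPKM in TV and 0.145 FPKM in NTV libraries. Uqcrb shares 25.5% of its stretches with other genes, 4 of them pseudogenes.

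Cycs, the gene of the mobile carrier cytochrome c (ENSMUSG00000063694, chr6:50562563-50566538, minus strand, mm10), had the smallest adjusted p of the 46 members. It had 80.4, 57.8, 93.0 and 69.4 FPKM in TL libraries and 47.7, 58.7, 61.3 and 60.5 FPKM in TV libraries, against 109.7, 124, 108 and 121 FPKM in NTV libraries. The highest TV library was far below the lowest NTV library (log2 change -1.02 ± 0.14, adjusted p = 0.00134). Of its 50-base stretches, 26.1% also occur in other genes, 10 of them pseudogenes, so its level is uncertain where such reads were split. Gm10053, the gene that shares most of them, averaged 17.6 FPKM in TV and 37.1 FPKM in NTV libraries.

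**Figure D2:**
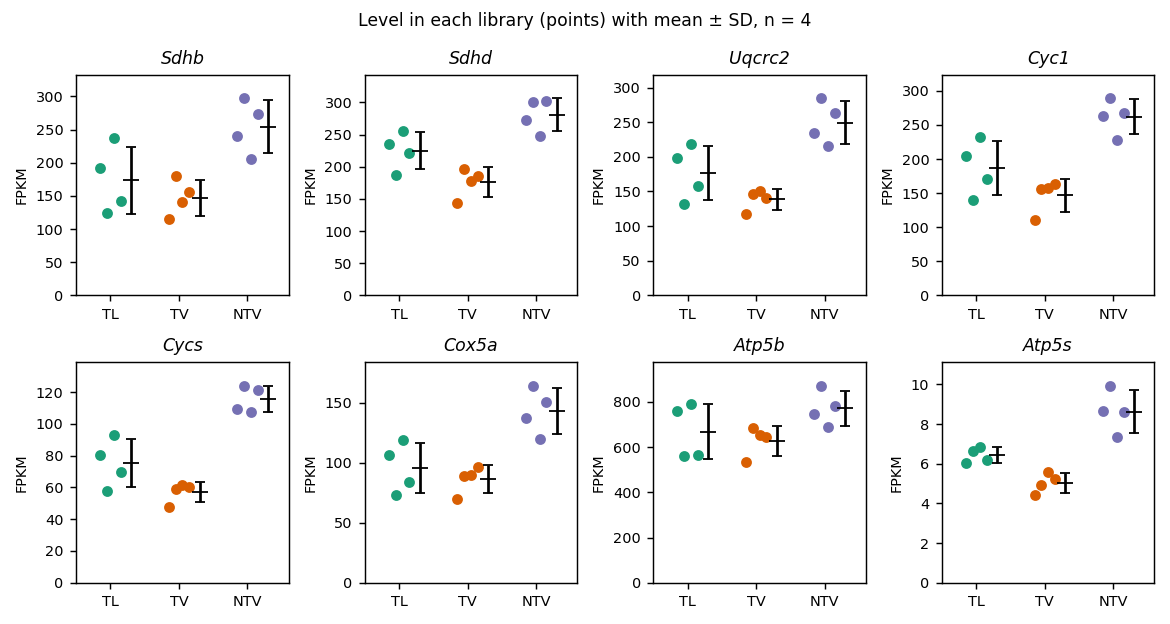
FPKM of 8 members in each of the 12 libraries (points) with the mean ± SD of each group beside them (n = 4). TV points lie below all NTV points in every panel, with the narrowest gap for Atp5b, and TL points spread between the other groups or overlap them. All 8 are among the 19 of 46 members whose TV and NTV values were separated in this way, so they do not stand for the other members.

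Complex IV was mixed. Of 15 tested members, 6 were called lower, 9 were not called, and the median log2 change was -0.35. Among the 5 subunits with 1 widely expressed form, Cox5a (-0.73 ± 0.16, adjusted p = 0.00895), Cox5b (-0.59 ± 0.15, adjusted p = 0.015) and Cox6c (-0.49 ± 0.16, adjusted p = 0.0438) fell, and Cox7b and Cox7c were not called. Cox5b shares 11.9% of its 50-base stretches with Gm11273, and Cox7c 22.1% with other genes, 3 of them pseudogenes. Gm11273 averaged 81.2 FPKM in TV and 99.6 FPKM in NTV libraries, and Cox5b itself 99.1 FPKM in TV and 149 FPKM in NTV libraries. The level of Cox5b is uncertain to that extent. Cox6b1, a subunit on the intermembrane side, was called lower with overlapping groups (-0.54 ± 0.17, adjusted p = 0.0383). The calls of Cox6c and Cox6b1 ended without TV replicate 3, 4 or 6, NTV replicate 2, 3 or 6 or the filter on low values, and for Cox6c in addition without TV replicate 8 or TL replicate 1 or 7 (the adjusted p reached 0.113 for Cox6c and 0.0953 for Cox6b1).

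Muscle forms of complex IV did not move as a set. Cox6a2, the heart and muscle form of subunit 6a (ENSMUSG00000030785, chr7:128205435-128206387, minus strand, mm10) and the most abundant member of all, had 1035, 993, 1088 and 861 FPKM in TL libraries and 1327, 1351, 913 and 1318 FPKM in TV libraries, against 1131, 1075, 835 and 1067 FPKM in NTV libraries. TV replicate 6 lay within the NTV range and the other TV libraries above it, and the gene was not called (0.25 ± 0.16, adjusted p = 0.28). Cox8b, the muscle form of subunit 8, had 419, 394, 649 and 490.5 FPKM in TL libraries and 441, 554, 550.4 and 914 FPKM in TV libraries, against 579.8, 614, 422 and 554 FPKM in NTV libraries. The TV and NTV ranges overlapped (0.14 ± 0.23, adjusted p = 0.687). Cox7a1, the muscle form of subunit 7a (ENSMUSG00000074218, chr7:30184144-30186078, plus strand, mm10), had the lowest log2 change of any member. It had 102, 47.1, 156 and 82.4 FPKM in TL libraries and 49.4, 72.7, 107 and 139 FPKM in TV libraries, against 182, 188, 156 and 185 FPKM in NTV libraries. Every TV library was below every NTV library, but TV libraries spread widely (-1.05 ± 0.35, adjusted p = 0.0476). The call was lost without TL replicate 1 or 7, TV replicate 3, 4 or 6 or NTV replicate 2, 3, 5 or 6, and without the filter, with no mean-variance trend or with a robust fit (adjusted p up to 0.127).

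The widely expressed partners were not called in TV against NTV. Cox7a2 had 157, 146, 190.3 and 154 FPKM in TL libraries and 129, 143, 128 and 149 FPKM in TV libraries, against 182, 188, 146 and 182 FPKM in NTV libraries (TV against NTV -0.34 ± 0.12, adjusted p = 0.051). Cox6a1 had 83.9, 27.8, 73.6 and 30.0 FPKM in TL libraries and 36.3, 27.98, 26.0 and 44.9 FPKM in TV libraries, against 36.2, 32.3, 61.2 and 35.0 FPKM in NTV libraries. Its high values were those of TL replicates 1 and 5 and NTV replicate 5, the libraries with Ucp1 above 2 FPKM. Cox8a had 97.3, 57.5, 105 and 47.5 FPKM in TL libraries and 54.0, 61.3, 46.8 and 69.95 FPKM in TV libraries, against 57.0, 52.3, 75.6 and 62.0 FPKM in NTV libraries, with the same 3 libraries highest. Cox4i1 had 352, 267, 429 and 271 FPKM in TL libraries and 283, 332, 299 and 391 FPKM in TV libraries, against 419.5, 516, 382 and 464 FPKM in NTV libraries. Its TV and NTV ranges overlapped slightly (-0.45 ± 0.17, adjusted p = 0.0747). Cox4i2, the form of subunit 4 best known from lung and low oxygen, was rare at 1.37, 0.947, 1.53 and 2.08 FPKM in TL libraries and 1.302, 1.70, 2.20 and 3.02 FPKM in TV libraries, against 3.06, 4.92, 4.02 and 3.58 FPKM in NTV libraries. It was called lower in TV against NTV (-0.81 ± 0.22, adjusted p = 0.021), and lost the call without TV replicate 3 or 4 or NTV replicate 3, or without the libraries above 2 FPKM of Ucp1 (adjusted p up to 0.0776). Cox7a2l, a factor that links complexes III and IV into supercomplexes, averaged 114 ± 8.37 FPKM in TV and 122 ± 14.97 FPKM in NTV libraries and was not called (95% interval of the log2 change -0.32 to 0.14).

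**Figure D3:**
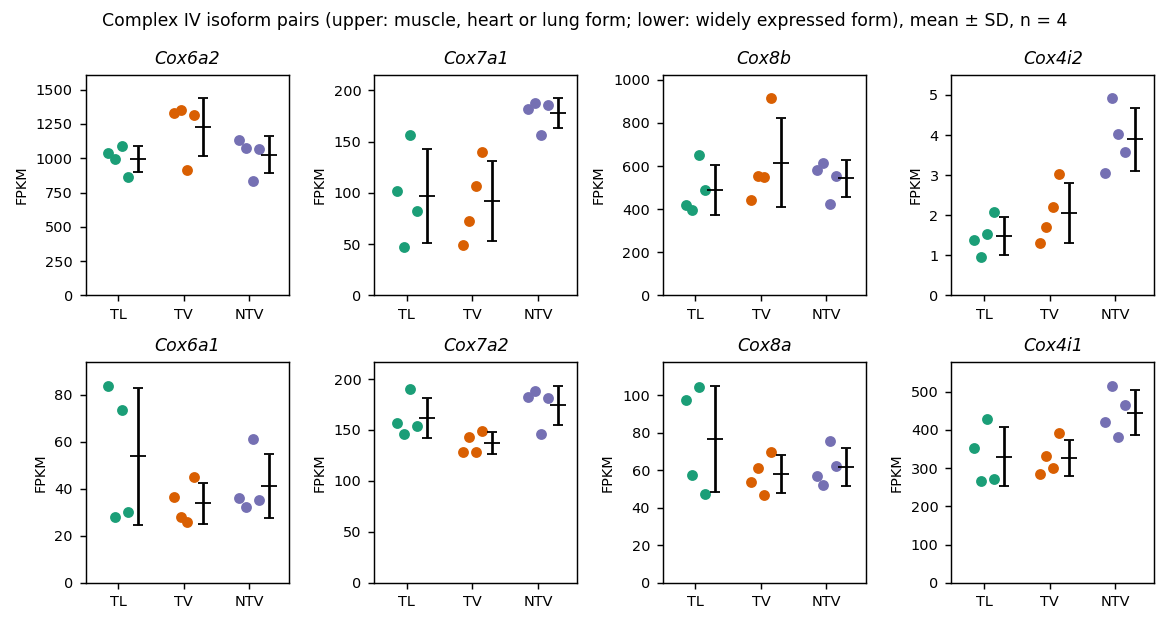
FPKM of the genes of 4 complex IV isoform pairs in each library (points) with the mean ± SD of each group (n = 4). Cox7a1 and Cox4i2 are lower in TV than in NTV libraries without overlap, whereas Cox6a2 and Cox8b overlap, and the high Cox6a1 and Cox8a points are TL replicates 1 and 5 and NTV replicate 5.

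Ratios between the forms were taken within each library, which removes the scaling between libraries. The log2 ratio of Cox7a1 to Cox7a2 was -0.68 ± 0.60 in TV and 0.03 ± 0.05 in NTV libraries (SD, n = 4 each), a difference of -0.71 (exact two-sided permutation test, p = 0.0286, the smallest that 4 against 4 libraries allow, adjusted p = 0.129 over 18 tests). In TL libraries it was -0.85 ± 0.57, again with no overlap with NTV (difference -0.88, exact p = 0.0286, adjusted p = 0.129). The ratios Cox6a2 to Cox6a1, Cox8b to Cox8a and Cox4i2 to Cox4i1 differed between TV and NTV by 0.51, 0.23 and -0.36, with overlapping libraries and exact p of 0.143, 0.457 and 0.171. No ratio passed after adjustment over the 18 tests, of which 4 were at the smallest p.

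Complex V had 4 members called lower, 1 called higher and 12 not called. None of the 5 genes of the catalytic head and central stalk was called, and their median log2 change was -0.30. Atp5a1, the alpha subunit and the most abundant of the complex, had 774, 598, 810.4 and 654 FPKM in TL libraries and 521, 739, 657 and 683 FPKM in TV libraries, against 817, 933, 775 and 871 FPKM in NTV libraries. Its TV and NTV values were separated, but it missed the threshold (-0.39 ± 0.15, adjusted p = 0.0658), as did Atp5b, the catalytic beta subunit (-0.30 ± 0.15, adjusted p = 0.168). In the peripheral stalk, which holds the head still, Atp5f1 (-0.55 ± 0.14, adjusted p = 0.0144) and Atp5j (-0.63 ± 0.16, adjusted p = 0.0141) fell, and Atp5h and Atp5o were not called. Atp5f1, Atp5h and Atp5o share 14.3%, 19.9% and 41.6% of their 50-base stretches with other genes and are uncertain to that extent. The small membrane subunits Atp5j2, Atp5k, Atp5l and Atp5mpl were not called, with log2 changes of -0.51 to 0.09. Atp5s, which encodes coupling factor B (ENSMUSG00000054894, chr12:69724950-69744660, plus strand, mm10), had 6.05, 6.64, 6.87 and 6.19 FPKM in TL libraries and 4.41, 4.91, 5.60 and 5.23 FPKM in TV libraries, against 8.65, 9.94, 7.33 and 8.59 FPKM in NTV libraries. The 3 groups did not overlap one another, and TV was lower than NTV by a log2 change of -0.72 ± 0.10 (adjusted p = 0.00135).

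The c ring, the rotor that protons turn, split. Its subunit is encoded by 3 genes whose products differ in the targeting peptide and are the same protein once imported. Atp5g3 (ENSMUSG00000018770, chr2:73908447-73911326, minus strand, mm10) had 174, 121, 215 and 137 FPKM in TL libraries and 100.3, 143, 131 and 163 FPKM in TV libraries, against 243, 291, 209 and 264 FPKM in NTV libraries. Atp5g2 (ENSMUSG00000062683, chr15:102662864-102672352, minus strand, mm10) had 117, 139, 132 and 119.7 FPKM in TL libraries and 133, 140.2, 142 and 175 FPKM in TV libraries, against 108, 128, 95.4 and 113 FPKM in NTV libraries. Atp5g1 had 78.7, 59.7, 69.1 and 62.8 FPKM in TL libraries and 58.5, 50.3, 62.7 and 85.4 FPKM in TV libraries, against 95.7, 106, 82.0 and 71.3 FPKM in NTV libraries. Every TV library was below every NTV library for Atp5g3 (-0.91 ± 0.20, adjusted p = 0.00692) and above every NTV library for Atp5g2 (0.41 ± 0.12, adjusted p = 0.0283), while Atp5g1 overlapped (-0.48 ± 0.17, adjusted p = 0.0586). Atp5g2 was the single member called higher. Its call was lost without TV replicate 4 or 8 or NTV replicate 2, 5 or 6, without the libraries above 2 FPKM of Ucp1, without the filter and with only TV and NTV in the fit (adjusted p up to 0.0992), and its sign stayed positive in each.

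Atp5g2 made up 36.1% ± 5.65 of the summed FPKM of the 3 genes in TL, 42.8% ± 1.85 in TV and 24.6% ± 0.476 in NTV libraries (SD, n = 4 each). Atp5g3 made up 44.9% ± 5.89 in TL, 38.7% ± 3.47 in TV and 55.7% ± 2.2 in NTV libraries. All TL libraries (31.6% to 43.5%) and all TV libraries (41.4% to 45.5%) had a larger share of Atp5g2 than any NTV library (24.1% to 25.2%). The sum was 356 ± 45.9 FPKM in TL, 346 ± 55.5 FPKM in TV and 451 ± 57.2 FPKM in NTV libraries. The log2 ratio of Atp5g2 to Atp5g3 was 0.15 ± 0.18 in TV and -1.17 ± 0.04 in NTV libraries, a difference of 1.32 (exact two-sided permutation p = 0.0286, adjusted p = 0.129). In TL libraries it was -0.32 ± 0.41, which differed from NTV by 0.86 (exact permutation p = 0.0286, adjusted p = 0.129) and from TV by -0.47 (exact permutation p = 0.114). Of the 50-base stretches of Atp5g2, 38.3% also occur in other genes, most of them in the pseudogene Gm10175, which averaged 16.02 FPKM in TV and 16.9 FPKM in NTV libraries. Atp5g1 shares 11.1% of its stretches, and Gm10039, the pseudogene that shares most, averaged 247 FPKM in TV and 336 FPKM in NTV libraries. Atp5g3 shares none.

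**Figure D4:**
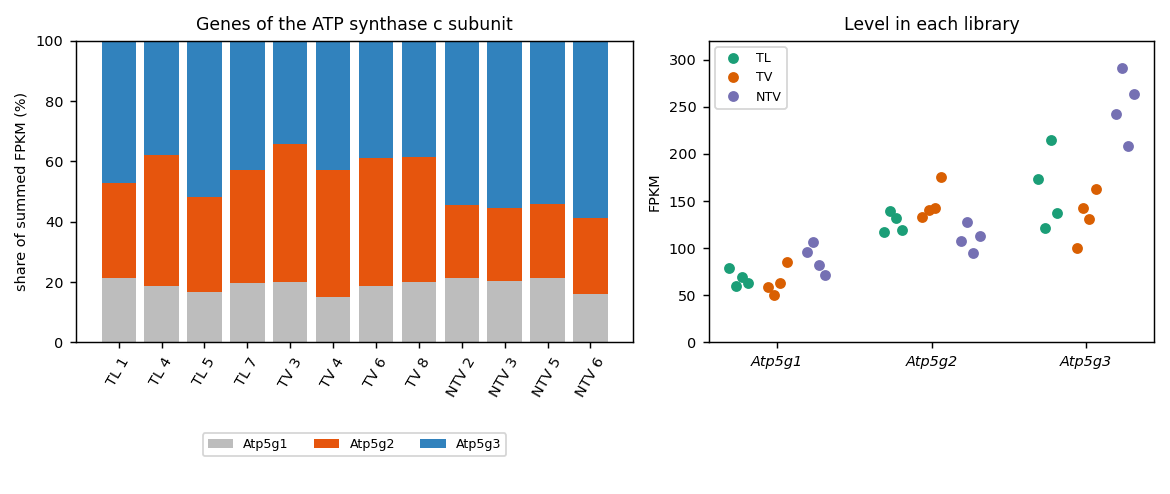
Left, share of the summed FPKM of the 3 genes of the ATP synthase c subunit in each library. Right, FPKM of each gene in each library, with TL, TV and NTV from left to right. Atp5g2 takes 41.4% to 45.5% of the sum in TV libraries and 24.1% to 25.2% in NTV libraries.

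Promoters of 4 members that fell or rose are shown because they differ in exact matches to 2 motifs tied to respiratory genes. These are the sites of the nuclear respiratory factor NRF1 and of the oestrogen-related receptors (ERR). The sequences are RefSeq windows of 300 bases on the build GRCm38.p6, from 250 bases before to 50 bases after the annotated start, 5′ to 3′ on the strand of the gene. Capitals mark an exact match, on either strand, to the NRF1 motif (GCGC, any base, TGCGC) or to the ERR motif TNAAGGTCA. All 4 genes are on the minus strand. The windows are chr6:50566520-50566819 for Cycs, chr9:50603800-50604099 for Sdhd, chr2:73911277-73911576 for Atp5g3 and chr15:102670998-102671297 for Atp5g2.
Cycs: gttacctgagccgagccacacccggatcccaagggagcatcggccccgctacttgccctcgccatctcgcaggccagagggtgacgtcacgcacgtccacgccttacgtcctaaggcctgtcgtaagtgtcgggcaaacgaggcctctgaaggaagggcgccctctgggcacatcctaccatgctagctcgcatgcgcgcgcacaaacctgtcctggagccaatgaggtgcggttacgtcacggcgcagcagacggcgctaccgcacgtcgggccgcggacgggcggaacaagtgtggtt
Sdhd: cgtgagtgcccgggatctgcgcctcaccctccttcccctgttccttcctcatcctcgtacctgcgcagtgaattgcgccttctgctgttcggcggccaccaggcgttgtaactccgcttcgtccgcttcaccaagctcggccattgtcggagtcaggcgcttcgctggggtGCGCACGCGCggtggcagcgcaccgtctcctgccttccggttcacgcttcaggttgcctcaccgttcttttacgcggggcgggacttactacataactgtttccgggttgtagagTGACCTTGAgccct
Atp5g3: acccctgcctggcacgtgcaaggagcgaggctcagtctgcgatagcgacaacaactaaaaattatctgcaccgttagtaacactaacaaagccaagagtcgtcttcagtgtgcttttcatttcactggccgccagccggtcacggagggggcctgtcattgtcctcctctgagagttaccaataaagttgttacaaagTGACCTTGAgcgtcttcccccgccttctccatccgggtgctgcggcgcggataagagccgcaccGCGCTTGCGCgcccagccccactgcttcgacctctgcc
Atp5g2: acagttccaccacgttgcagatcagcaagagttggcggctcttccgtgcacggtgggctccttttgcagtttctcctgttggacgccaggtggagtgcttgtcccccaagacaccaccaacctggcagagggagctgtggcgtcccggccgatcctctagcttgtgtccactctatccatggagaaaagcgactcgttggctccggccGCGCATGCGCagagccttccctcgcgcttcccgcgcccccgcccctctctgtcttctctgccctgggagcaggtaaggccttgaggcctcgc

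Atp5g3 has an ERR match that starts 52 bases before the start and an NRF1 match at base 13 after it. Sdhd has an NRF1 match 79 bases before the start and an ERR match at base 37 after it. Atp5g2 has an NRF1 match 42 bases before its start and no ERR match. The window of Cycs has no exact match to either motif. It does hold a stretch that differs from the NRF1 motif only in the first letter. Such near matches were not counted or marked in any gene, so the absence of a match does not mean the absence of a site. A window was at hand for 35 of the 46 tested members. Some genes have more than 1 window, and a gene was counted once if any of its windows matched. NRF1 matches were in 10 members (28.6%), against 5.19% of 27025 genes with windows of the same length. Those genes were taken whether or not they were tested in this muscle, so the shares are not matched for expression. ERR matches were in 2, Sdhd and Atp5g3 (5.71%, against 1.43% of all those genes). Matches to CCGGAAGT, the core of the ETS family to which GABPA belongs, were in 4 (11.4%, against 4.31%), and to AAGATGGCG of YY1 in 2 (5.71%, against 1.64%). Among the 13 members with a window that were called lower, 3 had NRF1, 2 ERR, 0 ETS and 1 YY1 matches. Among the 21 with a window that were not called, 6 had NRF1, 0 ERR, 4 ETS and 1 YY1 matches. These are counts of letters, and neither binding nor a relation to the changes was tested.

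Genes that work with the members moved in the same comparison as follows. Of 36 nuclear subunits of complex I, 16 fell, 1 rose and 19 were not called (median log2 change -0.42). Ndufs1, its largest iron-sulphur subunit, fell by 0.93 ± 0.16 on the log2 scale (adjusted p = 0.00291), Ndufab1 by 0.90 ± 0.15 and Ndufs8 by 0.84 ± 0.18. Of the assembly factors, 2 of 4 for complex II, 3 of 6 for complex III, 10 of 26 for complex IV and cytochrome c haem attachment and 3 of 5 for complex V fell, and none rose. They included Taco1, a translational activator of the mitochondrial subunit 1 of complex IV, at 16.3 ± 4.00 FPKM in TV and 41.4 ± 3.62 FPKM in NTV libraries (-1.35 ± 0.17, adjusted p = 0.00107). Hccs, the lyase that attaches haem to cytochromes c and c1, averaged 5.67 ± 0.281 FPKM in TV and 13.5 ± 0.911 FPKM in NTV libraries (-1.18 ± 0.13, adjusted p = 0.000719). Bcs1l, the factor that inserts the Rieske protein, fell by 0.88 ± 0.14 (adjusted p = 0.00188), Cmc2 by 1.10 ± 0.16, and Sdhaf4, which helps Sdha into complex II, by 0.70 ± 0.12. Atpaf1 fell by 0.72 ± 0.17 and Tmem70 by 0.70 ± 0.13, both needed to build the ATP synthase. Ndufa4, Usmg5 and Atpif1, which belong to complexes IV and V or regulate them but fall outside the name rule, were not called, with log2 changes of -0.39 to -0.24.

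The 6 mitochondrially encoded partners all had negative log2 changes, with a median of -0.84, and 1 was called. mt-Atp6, subunit a of the ATP synthase, had 269.6, 289, 185 and 279 FPKM in TV libraries, against 1579.7, 848, 795 and 1105 FPKM in NTV libraries (-2.05 ± 0.21, adjusted p = 0.000541). mt-Co1 averaged 17177 ± 3914 FPKM in TV and 31559.6 ± 4107 FPKM in NTV libraries, and mt-Cytb 9898 ± 1934 FPKM in TV and 16898 ± 2657 FPKM in NTV libraries. Neither was called (adjusted p = 0.0716 and 0.079). The level of mt-Atp6 was far below those of mt-Co1 and mt-Cytb in every library. Sequence shared with other genes was searched for members only and not for the mitochondrially encoded genes, so the level of mt-Atp6 is uncertain. Among 14 genes of mitochondrial content, 7 fell and none rose, with Ckmt2, the mitochondrial creatine kinase of muscle, lowest at 381 ± 62.6 FPKM in TV and 1596 ± 186 FPKM in NTV libraries (-2.07 ± 0.37, adjusted p = 0.00303). Hspd1, a matrix chaperone, fell by 0.73 ± 0.12 and Phb, prohibitin, by 0.72 ± 0.14.

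Of 16 transcription regulators of respiratory genes, 5 fell, 3 rose and 8 were not called. Esrra, the receptor ERR alpha, had 21.9, 29.2, 28.9 and 30.7 FPKM in TV libraries, against 54.6, 55.6, 49.4 and 50.7 FPKM in NTV libraries (-0.92 ± 0.15, adjusted p = 0.00227). Perm1, a muscle partner of PGC-1 and ERR, had 28.4, 31.2, 23.2 and 27.5 FPKM in TV libraries, against 61.4, 56.2, 57.0 and 55.2 FPKM in NTV libraries (-1.05 ± 0.20, adjusted p = 0.00389). Esrrb fell by 0.99 ± 0.24, Ppargc1b by 0.98 ± 0.19 and Esrrg by 0.89 ± 0.22. Nrip1, a corepressor of oxidative genes, averaged 8.11 ± 3.10 FPKM in TV and 3.16 ± 0.815 FPKM in NTV libraries (1.18 ± 0.26, adjusted p = 0.00833). Nrf1 rose by 0.48 ± 0.11 (adjusted p = 0.0109) and Pprc1 by 0.42 ± 0.12 (adjusted p = 0.0265). Ppargc1a, the coactivator PGC-1 alpha, was at 16.5, 13.2, 4.91 and 7.40 FPKM in TV libraries, against 7.23, 7.90, 7.47 and 6.44 FPKM in NTV libraries, with TV libraries on both sides of the NTV range (0.37 ± 0.30, adjusted p = 0.4). Gabpa (adjusted p = 0.327) and Tfam (adjusted p = 0.051) were not called.

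**Figure D5:**
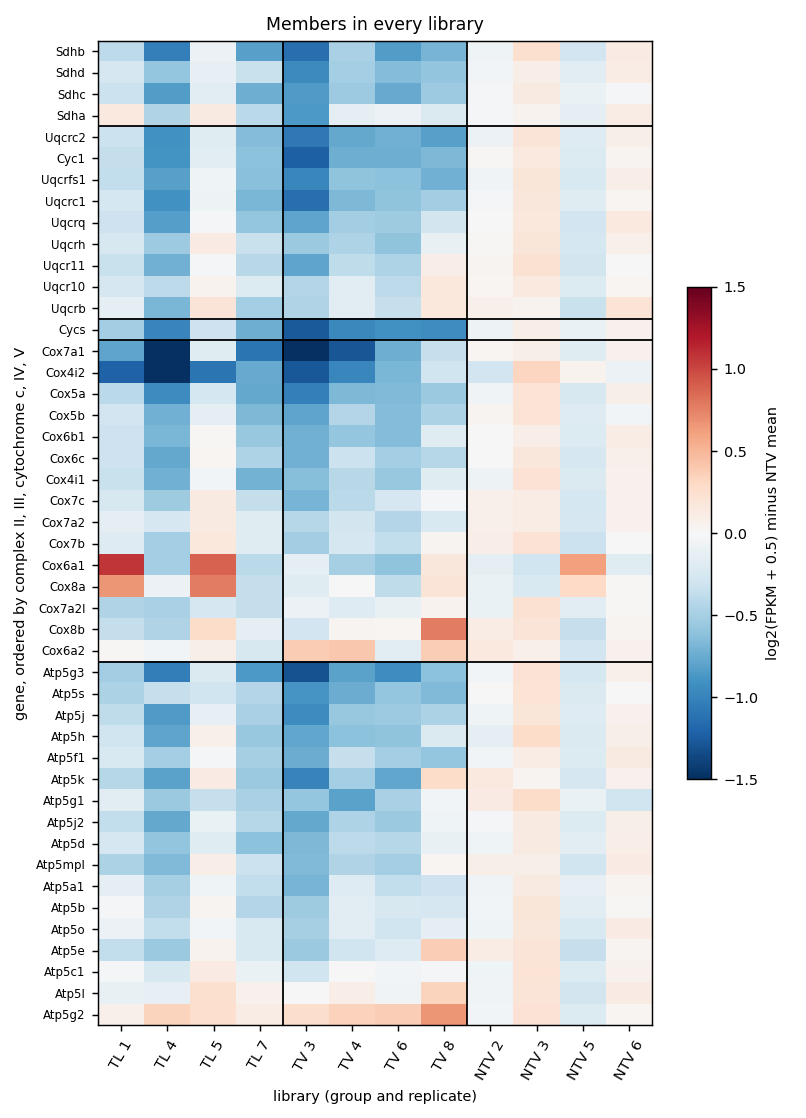
Each tested member (rows, ordered by complex and within it by the TV change) in each library (columns, TL, TV, NTV), as log2(FPKM + 0.5) minus the NTV mean of that member. Colours end at 1.5 in either direction. TV columns and TL replicates 4 and 7 are mostly blue, TL replicate 5 is close to NTV for most members, and Atp5g2 lies above the NTV mean in all TL and TV libraries.

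The comparison of TL with TV asked what selpercatinib changed in tumour-bearing mice. No member was called in limma, while 0.517% of all tested genes were. At an unadjusted p under 0.05 there were 4 members, 3 higher and 1 lower, and 16.1% of all tested genes were at that level. Voom on recovered reads also called 0. The median log2 change was 0.11, with 36 of 46 members above 0, against -0.00 over all tested genes. The smallest adjusted p was that of Atp5s (0.33 ± 0.10, adjusted p = 0.163), whose TL libraries all lay above the TV libraries. Cycs was at 0.38 ± 0.14 (95% interval 0.07 to 0.69, adjusted p = 0.221) and Sdhd at 0.35 ± 0.13 (0.06 to 0.64, adjusted p = 0.225). Cox7a2l was the other way, at 93.0 ± 6.99 FPKM in TL and 114 ± 8.37 FPKM in TV libraries without overlap (-0.30 ± 0.11, adjusted p = 0.207). Intervals were wide: the upper end passed 0.5 on the log2 scale for 19 of 46 members.

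TL libraries differed from one another. TL replicate 5 was above all 4 TV libraries for 33 of 46 members and TL replicate 1 for 22, but TL replicate 7 for 6 and TL replicate 4 for 1. Against NTV, TL replicate 4 lay below all 4 libraries for 42 members, TL replicate 7 for 36, TL replicate 1 for 31 and TL replicate 5 for 8. The members' median distance from the NTV mean was -0.31 in TL replicate 1, -0.64 in TL replicate 4, -0.03 in TL replicate 5 and -0.46 in TL replicate 7 on the log2 scale. TL replicates 1 and 5 are those with Ucp1 above 2 FPKM. Without them the members' median change in TL against TV was -0.11, so the direction of the median rested on those libraries.

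TL against NTV, which differ in both tumour and drug, had 6 members called lower and none higher. Over all tested genes, 4.62% were lower and 4.19% higher. The median log2 change was -0.38, against 0.02 over all genes. In 7 members the TL values lay below all NTV values, which held for 10.1% of all tested genes. Tendon cell markers summed to 18.8 to 48.3 FPKM in TL and 67.4 to 130.3 FPKM in NTV libraries, with 6 of 8 tested called lower. Endothelial markers summed to 55.0 to 74.8 FPKM in TL and 91.2 to 111.9 FPKM in NTV libraries, with 3 of 8 called lower. Smooth muscle markers had 2 of 6 called lower, with overlapping sums of 79.5 to 117 FPKM in TL and 104 to 201 FPKM in NTV libraries. Of the slow and oxidative fibre genes 1 of 12 and of the brown adipocyte genes 1 of 7 were called lower, and none of the white adipocyte, fast fibre, muscle identity, macrophage or erythroid genes was called. The part of these markers in the result was not tested. The 6 members were Cox4i2 (-1.16 ± 0.22, adjusted p = 0.011), Cycs (-0.64 ± 0.14, adjusted p = 0.02), Atp5s (-0.39 ± 0.10, adjusted p = 0.035), Cox7a2l (-0.39 ± 0.11, adjusted p = 0.0438), Cox5a (-0.59 ± 0.16, adjusted p = 0.0455) and Sdhc (-0.52 ± 0.15, adjusted p = 0.0498). Cox7a2l and Cox5a share 13.8% and 9.11% of their 50-base stretches with other genes. TL and TV are both set against the same NTV libraries, so the lists are not independent. The count was unstable: it was 15 without TL replicate 5, 19 without TL replicates 1 and 5, 2 without TL replicate 1 or 4 or NTV replicate 2, 3 without TV replicate 4 or 6 or NTV replicate 5, and 1 without TL replicate 7 or NTV replicate 3 or 6. The share of all genes called in these fits is not given here, so the counts show only the instability. No single one of the 6 calls held under every alternative, and the loss for Cycs was without TL replicate 7 or NTV replicate 3 or 6 (adjusted p up to 0.0562).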

How the data were processed

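Poly(A) RNA of gastrocnemius muscle from 12 mice, 4 per group, was sequenced. The authors deposited FPKM values per gene with gene length, position and biotype. For the tools, the labels' processing fields list HISAT2 (2.05), featureCounts (1.5.0-p3), DESeq2 and mm10, per the submitters' processing notes, with no role stated. Read length and strand handling are not given in the sources used here. Multiplying FPKM by length recovered whole reads: 100% of genes came out whole within 0.1 read. These gave the depths and a voom alternative. No per-sample column was left out.

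The test was limma (3.58.1, R 4.3.3) on log2 of FPKM + 0.5. It used all 12 libraries with 1 mean per group, modelled the variance on mean level, and adjusted by Benjamini-Hochberg over the 12754 genes averaging at least 0.5 FPKM. The added constant understates changes of rare genes such as Cox4i2. Values after ± are SD for levels and SE for log2 changes. Libraries are biological replicates per the labels, and pairs within a group differed beyond counting error (chi-square per degree of freedom at least 17.9). On simulated data for TV against NTV over 12754 genes, the test found 72 of 94 genes given a 2-fold change and 102 of 106 given a 4-fold one, and made 12 false calls. The simulated noise was independent between genes, whereas in the real libraries many members shift together. These numbers therefore do not give the error rates in the real data.

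Ratios of 6 isoform pairs were tested by exact permutation in scipy 1.17.1. Stretches of 50 bases were matched between GENCODE transcripts, and motifs were searched in RefSeq windows. Alternatives were other pseudocounts, filters, scalings and fits, voom, a replicate block and libraries left out. Members and lists were chosen with earlier results of these data known. Members given library by library are, per complex, the 2 of largest change in TV against NTV and the most abundant, any called against the majority, and the isoform pairs. Of other lists, up to 3 called genes of largest change are named, with a fixed set of regulators and mitochondrial genes. Other members are given by their change or group means, and were named after their values were seen.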

Additional observations from a re-analysis of the deposited data

Results flagged for a closer look

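In 156 sets of 4 libraries (46 members in 3 groups and the isoform ratios), 8 had a library far from the other 3 by Dixon's test at 95%. Chance flags about 1 in 20 independent sets. These sets reuse the same 12 libraries over members that move together, so the number of flags cannot be set against that rate. In NTV replicate 5, Cox6a1 was high at 61.2 FPKM, and Cox7c at 181 FPKM, Cox7a2 at 146 FPKM and Atp5mpl at 74.5 FPKM were low, as was the log2 ratio of Cox6a2 to Cox6a1 at 3.76. NTV replicate 5 also had 53.4 FPKM of Ucp1. In TV replicate 3, Cyc1 was low at 111 FPKM and Atp5c1 at 287 FPKM. In TV replicate 6, Cox6a2 was low at 913 FPKM. Causes were not tested.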

How the results depend on the processing

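Of the 20 members called in TV against NTV, 13 stayed called under every alternative; the exceptions are named with their results. The count was 31 with quantile normalization, where 24.6% of all tested genes were called, and 14 to 28 with 1 library left out. Shares of all genes called are not given here for fits that left out libraries, groups or the filter. Those counts show only how far the calls held. Members called in TL against TV numbered 0 throughout. In TL against NTV there were 6, with 2 when the filter was dropped, 3 with only the TL and NTV libraries in the fit, 19 without TL replicates 1 and 5, 15 without libraries above 2 FPKM of Ucp1, and 1 to 15 with 1 library left out. An equal FPKM total moved the median of all genes by 0.11 in TL against NTV, and the members' median to -0.25. Voom on recovered reads called 22 members and 3366 genes in all for TV against NTV, 7 members and 1263 genes for TL against NTV, and 0 members and 75 genes for TL against TV. The causes were not tested.

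Signs turned in members that were not called, among those followed singly. In TL against TV these were only Cycs, Cyc1, Uqcrc2, Sdhd, Atp5s, Atp5g3, Cox6a1 and Cox7a2l, and in TL against NTV only the called members. The members' median in TL against TV also turned negative without TL replicates 1 and 5, so further members turned that are not listed here. Without TL replicates 1 and 5, or without libraries above 2 FPKM of Ucp1, TL against TV was -0.034 for Atp5g3 and -0.19 for Cox6a1. In TV against NTV, Atp5l was -0.00701 with an equal total that left out mitochondrial and the 50 most abundant genes, Cox8b was -0.068 without TV replicate 8 and up to 0.28 with another library left out, and Cox8a was 0.0061 without TV replicate 6 and 0.010 without NTV replicate 5 or the Ucp1 libraries. The log2 ratio of Cox6a2 to Cox6a1 in TL against NTV was 0.32 without TL replicates 1 and 5 and 0.014 without the Ucp1 libraries. That of Cox7a1 to Cox7a2 in TL against TV was 0.079 without TL replicate 4 and 0.017 without TV replicate 8, within -0.41 to 0.079 over libraries left out.

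With the replicate number as a replicate block, 20 members were called in TV against NTV, 0 in TL against TV and 5 in TL against NTV. Libraries of the same number correlated at 0.0142 to 0.133 in their deviations, and libraries of different numbers in different groups at -0.227 to 0.238. Whether a shared number stands for a shared cage, batch or order was not tested. Depth limits Cox4i2, with 90 to 221 reads per group.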
